A study of Caenorhabditis elegans with 3 samples.

Results

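In Caenorhabditis elegans, 10 genes of the cytosolic heat shock response were examined for binding of PQM-1: hsf-1, hsp-1, hsp-70, hsp-110, hsp-90, hsp-12.6, hsp-16.1, hsp-16.48, hsp-16.2 and hsp-16.41. These 10 genes were chosen by name from the 19973 nuclear protein-coding genes that Ensembl annotates on WBcel235, the assembly that the peak lists call ce11. Ensembl gives their symbols to 12 gene records, since hsp-16.1 and hsp-16.48 each name a pair of near-identical copies. The records T27E4.8 and T27E4.3 were taken as the members, and their copies T27E4.2 and T27E4.9 carry the RefSeq symbols hsp-16.11 and hsp-16.49.

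The assay was ChIP-seq, which sequences the DNA recovered with an immunoprecipitated protein, here tagged PQM-1 from entire L4 larvae of strain OP201 with both sexes pooled. The genotype was unc-119(tm4063) III; wgIs201, so every library came from an unc-119 mutant background that also held a transgene for PQM-1 with a C-terminal GFP-FLAG tag. The 3 libraries formed 1 group with 2 biological replicates, of which replicate 1 had 2 technical libraries and replicate 2 had 1. No second condition, heat shock included, was part of the data, and with whole animals a site used in a few cells and a site used weakly in many cells cannot be told apart.

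HSF-1 is the transcription factor that activates heat shock genes, and it binds as a trimer to heat shock elements, which are GAA units that alternate in orientation. HSP70, HSP110 and HSP90 chaperones fold and refold proteins with ATP, while small heat shock proteins hold unfolded proteins without it. PQM-1 is a zinc finger transcription factor associated with the GATA-like word TGATAAG and known for acting in opposition to the forkhead factor DAF-16 downstream of insulin signalling.

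The authors deposited peak lists for replicate 1 (24037 peaks), for replicate 2 (19038 peaks), for both replicates pooled (18821 peaks) and, as the optimal list, those passing a cut on the irreproducible discovery rate (IDR, 4739 peaks). The optimal peaks were the 4739 strongest of the pooled list, with a signal of 31.5 to 350.1 and a median of 55.4. Signal is the authors' value for each peak and was used only to describe and rank peaks within a list, and a rank of 1 is the strongest peak. The pooled and replicate lists were inputs to the thresholding and also hold background peaks, so a weak peak found in them alone is a listed position and not an optimal site.

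An optimal summit lay within 5 kb of the span of 6 of 10 heat shock genes, all but the 4 hsp-16 genes. This stands beside 41.7% of all protein-coding genes (8334 of 19973), a share too close to the background to be read as a result about these genes. A promoter ran from 1000 bp before to 200 bp after the outermost annotated start. An optimal summit lay in the promoter of 2 of 10, hsp-1 and hsp-110, beside 12.8% of protein-coding genes (2553 of 19973). The 6 genes were near 8 distinct optimal peaks, none of which was near more than 1 of the 10 genes. The loci differed in where these peaks lay, in which neighbours shared them and in the letters under them.

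The nearest optimal summit was 215 bp from the start of hsp-110, 316 bp from hsp-1, 917 bp from hsp-90 and 2028 bp from hsf-1. It was 4783 bp from hsp-12.6, 5334 bp from hsp-70, 6187 bp from hsp-16.1 and 6536 bp from hsp-16.48. For hsp-16.2 and hsp-16.41 it was 32993 and 33214 bp away. The median distance was 5058.5 bp over the 10 genes and 8625 bp over all protein-coding genes.

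**Figure D1:**
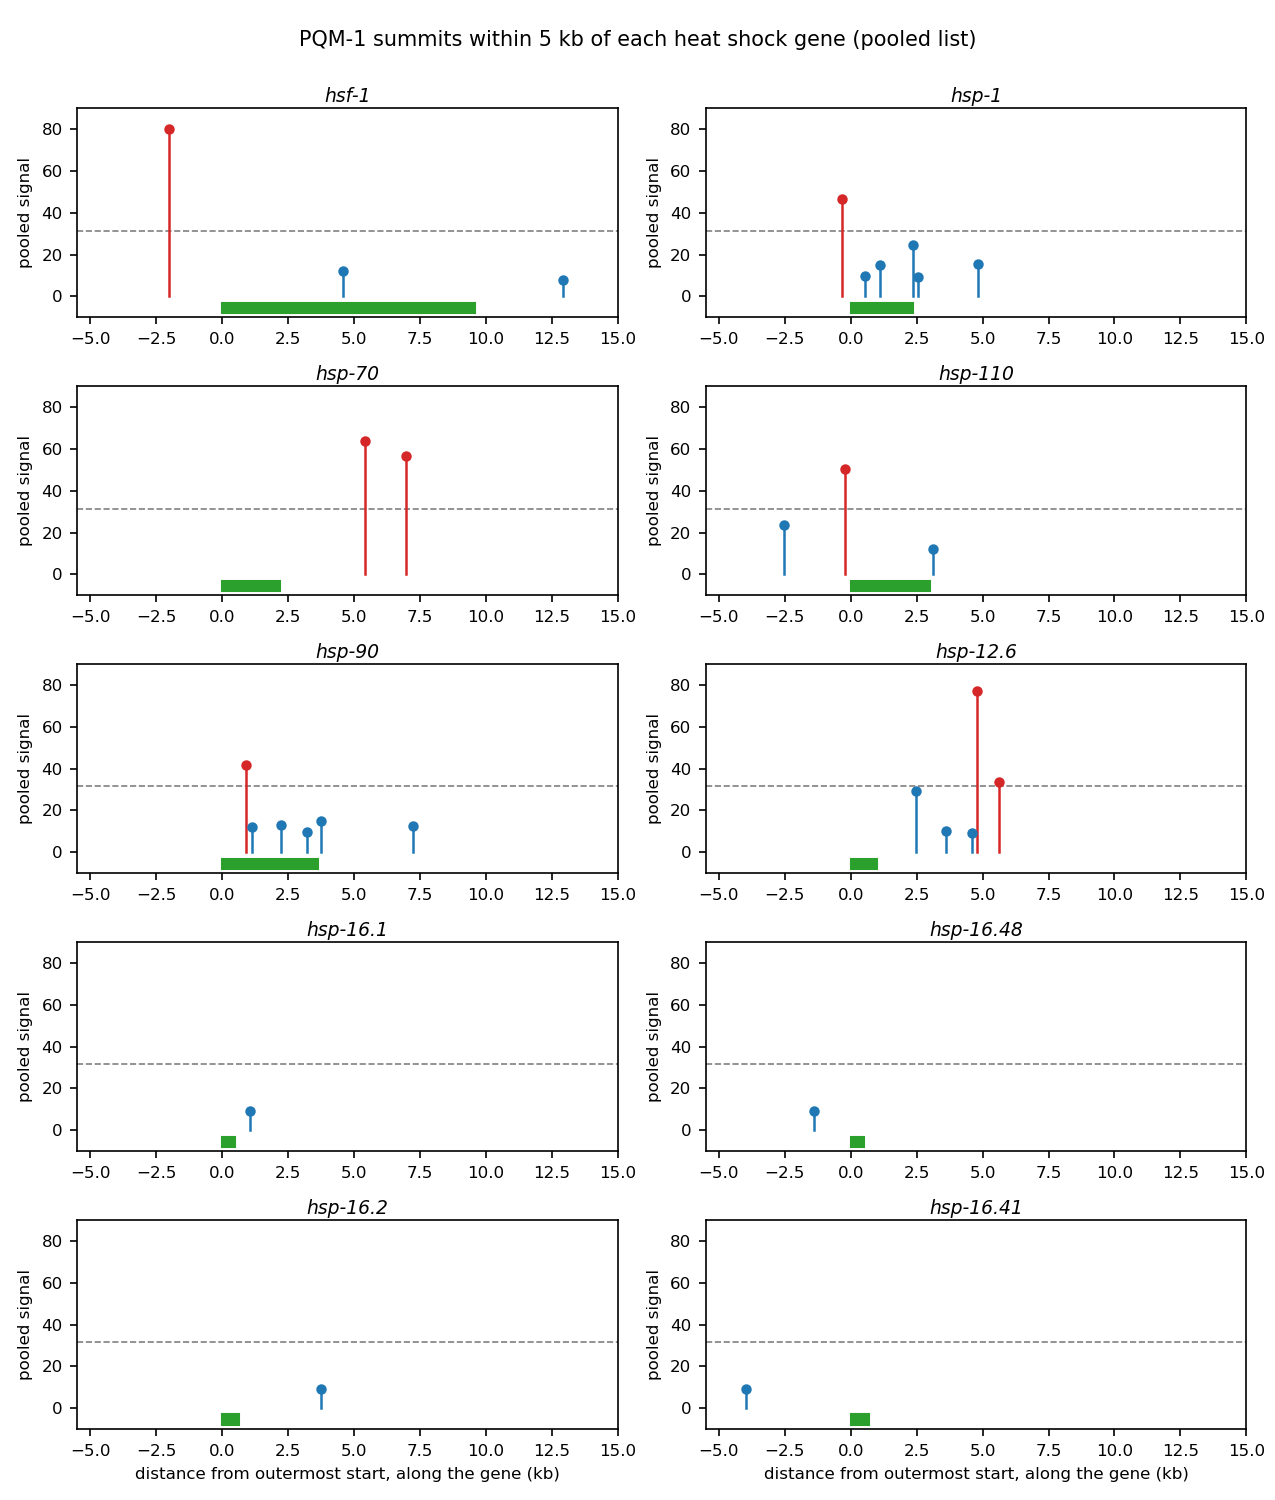
Pooled-list summits within 5 kb of each gene by their distance from the outermost start in kb (horizontal axis, positive downstream) and their signal (vertical axis). Green bars are the genes, red points are optimal peaks, blue points are weaker pooled peaks and the dashed line is the lowest optimal signal of 31.5. Only hsf-1, hsp-1 and hsp-110 have a red point upstream of the start, and the 4 hsp-16 genes have none.

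The gene for the heat shock transcription factor, hsf-1 (chrI:11953507-11963085, minus strand), had the strongest peak within 5 kb of any of the 10 genes. Its summit lay in intergenic sequence 2028 bp upstream of the outermost hsf-1 start, with a pooled signal of 80.0 and rank 1116 of 4739. The signal was 27.1 in the replicate 1 list (rank 941 of 24037) and 56.6 in the replicate 2 list (rank 1164 of 19038). The replicate summits were 19 and 38 bp from the optimal one, so both replicates placed the site at the same position within the width of a peak. No other protein-coding gene lay within 5 kb of this summit, which makes it the one unshared distal site of the 8. The other hsf-1 transcript starts 1101 bp inside the gene, and from that start the summit was 3129 bp upstream. Within hsf-1 the pooled list held 1 summit, in an intron, with a signal of 12.004 (rank 10792 of 18821).

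The heat-inducible HSP70 gene hsp-70 (chrI:9320325-9322519, minus strand) lies inside the span of uggt-2 (chrI:9317713-9327279, plus strand), a gene of the UDP-glucose:glycoprotein glucosyltransferase family. Its 2 optimal peaks were both downstream of hsp-70 and in the promoters of other genes. The stronger one, with a signal of 63.8 (rank 1845), was 609 bp upstream of uggt-2 and 5415 bp downstream of the hsp-70 start. The replicate 1 list gave it 21.7 (rank 1594) and the replicate 2 list 41.8 (rank 2196). The other one, with a signal of 56.8 (rank 2286), was 676 bp upstream of F26H9.5 and 6952 bp downstream of the hsp-70 start, with signals of 17.5 in replicate 1 and 45.1 in replicate 2. Both therefore entered the count through the 3′ side of hsp-70, at 3221 and 4758 bp from its span. The optimal summit nearest to the hsp-70 start, 5334 bp upstream of it with a signal of 84.5 (rank 956), lay just outside the 5 kb limit. In the hsp-70 promoter itself the pooled list and replicate 1 held no summit, and replicate 2 held 1, at -174 bp with a signal of 6.34 (rank 18586 of 19038), close to the end of that list.

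All 8 optimal peaks were overlapped by a peak in each replicate list, and the replicate summits lay within 97 bp of the optimal summit. Because the optimal list was made from the same replicates, this is a description of the sites and not an independent check. The ranks nevertheless differed between replicates at some loci. The hsp-90 site ranked 5532 in replicate 1 and 2805 in replicate 2, and the weaker site near hsp-12.6 ranked 7729 in replicate 1 and 3398 in replicate 2. The hsp-110 site went the other way, with rank 1337 in replicate 1 and 3501 in replicate 2.

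**Figure D2:**
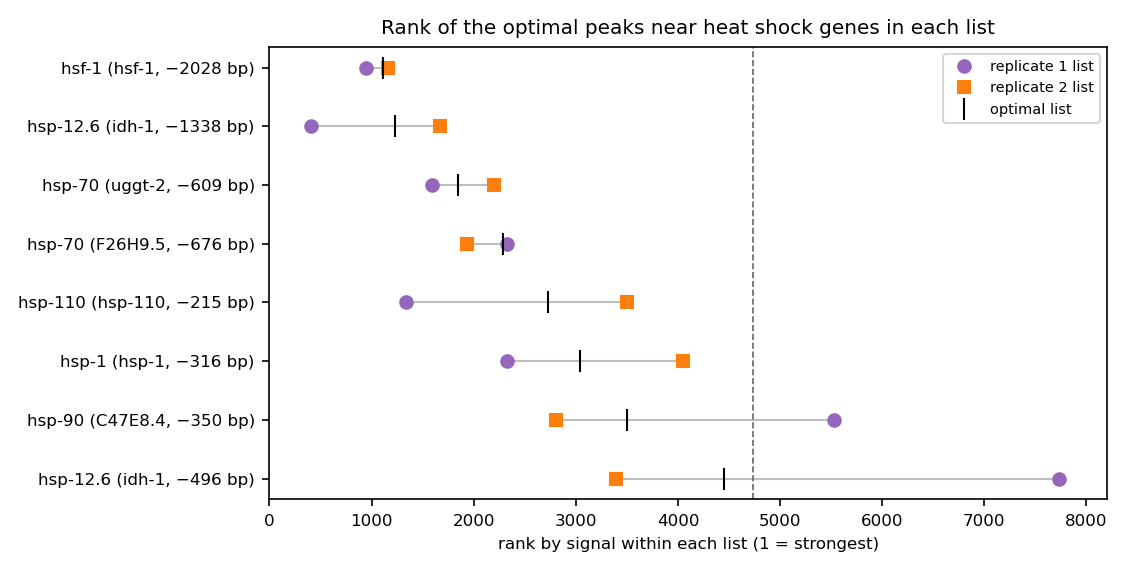
Rank by signal (horizontal axis, 1 is the strongest) of the 8 optimal peaks in the replicate 1 list (circles), the replicate 2 list (squares) and the optimal list (ticks), with the gene of the nearest start and the offset from that start in parentheses. The dashed line marks rank 4739. The hsp-90 peak at 5532 and the weaker hsp-12.6 peak at 7729 are the sites past that rank in replicate 1.

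The constitutive HSP70 gene hsp-1 (chrIV:17278959-17281330, plus strand) had a promoter peak of its own. The summit was 316 bp upstream of the start, in the promoter of no other protein-coding gene, with a signal of 46.4 (rank 3040). Its signal was 17.5 in replicate 1 (rank 2329) and 26.5 in replicate 2 (rank 4054), and the replicate 2 summit was at the same base. The sequence below is the summit with 100 bp on each side (chrIV:17278543-17278743, ce11, plus strand). It is shown because it holds neither TGATAAG nor TTCNNGAA, a pair of heat shock units that point away from each other. The facing pair, with the GAA unit first, was not searched for, and this window holds such a pair. The single GATA word of the window, WGATAR (W is A or T, R is A or G, here on the opposite strand), in capitals, was 80.5 bp from the summit.

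hsp-1 promoter site: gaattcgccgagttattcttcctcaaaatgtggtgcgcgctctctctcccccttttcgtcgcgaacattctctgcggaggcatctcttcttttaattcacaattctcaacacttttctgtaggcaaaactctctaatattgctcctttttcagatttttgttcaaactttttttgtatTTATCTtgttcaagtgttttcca

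The gene for the HSP110 nucleotide exchange factor, hsp-110 (chrIII:8443910-8446909, minus strand), shares its upstream region with rpn-3, a subunit of the regulatory particle of the proteasome that is transcribed in the opposite direction. The summit was 215 bp upstream of hsp-110 and 229 bp upstream of rpn-3, so the peak cannot be assigned to one of them by position. Its signal was 50.4 (rank 2724), with 23.6 in replicate 1 and 30.3 in replicate 2. The window (chrIII:8447024-8447224, ce11, minus strand, the strand of hsp-110) held no WGATAR. It held a heat shock element of 3 alternating units with 2 bases between units, in capitals, whose centre was 16 bp from the summit.

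hsp-110 and rpn-3 shared promoter site: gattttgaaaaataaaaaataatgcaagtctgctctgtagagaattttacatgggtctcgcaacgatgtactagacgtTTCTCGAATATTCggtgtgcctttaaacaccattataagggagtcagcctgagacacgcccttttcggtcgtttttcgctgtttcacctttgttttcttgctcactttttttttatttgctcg

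For the HSP90 gene hsp-90 (chrV:14684918-14688545, plus strand), the promoter call turned on the transcript. The summit was 917 bp downstream of the outermost start, in an intron of the longer transcript, and 325 bp upstream of the inner start, which is the start RefSeq gives for the gene. It was also 350 bp upstream of C47E8.4, a gene on the opposite strand that overlaps the 5′ end of hsp-90. The signal was 41.8 (rank 3505), with 8.38 in replicate 1 and 35.7 in replicate 2. Replicate 1 had 2 peaks that overlapped the optimal one, and its strongest peak at the locus was elsewhere, 3196 bp downstream of the start with a signal of 9.401 (rank 4989). The window (chrV:14685735-14685935, ce11, plus strand) held no WGATAR, and the TTCNNGAA pair, in capitals, was centred 2.5 bp from the summit. The window also holds a facing pair, the arrangement that was not searched for.

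hsp-90 internal promoter site: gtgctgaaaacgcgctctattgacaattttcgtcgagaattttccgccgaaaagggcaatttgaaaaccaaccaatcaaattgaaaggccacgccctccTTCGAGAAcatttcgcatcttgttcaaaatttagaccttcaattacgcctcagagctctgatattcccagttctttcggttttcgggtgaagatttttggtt

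The small heat shock gene hsp-12.6 (chrIV:9446229-9447228, minus strand) had 2 optimal peaks, 4783 and 5625 bp downstream of its start, past its 3′ end. The stronger had a signal of 77.2 (rank 1229), with 35.9 in replicate 1 (rank 406) and 48.7 in replicate 2 (rank 1671). Its nearest start was that of idh-1, the cytosolic isocitrate dehydrogenase gene, 1338 bp away, and F38E11.9, hsp-12.3 and F59B8.1 were also within 5 kb. The start of hsp-12.6 came 4th by distance, and F38E11.9 and hsp-12.3 lay between hsp-12.6 and both peaks. The weaker had a signal of 33.5 (rank 4450), just above the lowest optimal signal of 31.5, and lay 496 bp upstream of idh-1, in its promoter. The replicate lists gave it 5.83 (replicate 1) and 30.9 (replicate 2). Just under the threshold, a pooled peak with a signal of 29.4 (rank 5085) lay 2459 bp downstream of the hsp-12.6 start in the promoter of F38E11.9. No summit of the pooled list lay inside hsp-12.6 or in its promoter.

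Both windows are shown on the minus strand, which is the strand of hsp-12.6 and idh-1, with WGATAR and TTCNNGAA in capitals. They differ in how many words they hold: the stronger site (chrIV:9442345-9442545, ce11) has 4 WGATAR words, 1 of them within TGATAAG on the opposite strand, and 1 TTCNNGAA, and the weaker site (chrIV:9441503-9441703, ce11) has 2 WGATAR words, 1 of them centred 2.5 bp from the summit.

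stronger site between hsp-12.6 and idh-1: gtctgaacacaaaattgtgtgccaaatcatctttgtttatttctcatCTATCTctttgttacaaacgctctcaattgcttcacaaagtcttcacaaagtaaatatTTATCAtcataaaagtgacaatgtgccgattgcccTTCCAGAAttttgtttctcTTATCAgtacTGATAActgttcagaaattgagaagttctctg
weaker site between hsp-12.6 and idh-1: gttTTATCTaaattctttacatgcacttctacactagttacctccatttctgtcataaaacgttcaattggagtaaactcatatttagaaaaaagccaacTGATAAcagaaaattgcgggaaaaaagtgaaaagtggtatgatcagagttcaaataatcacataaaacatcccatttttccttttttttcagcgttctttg

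The 4 hsp-16 genes encode heat-inducible small heat shock proteins and are arranged as divergent pairs on chromosome V. None had an optimal summit within 5 kb. For hsp-16.2 (chrV:1804334-1804957, minus strand) and hsp-16.41 (chrV:1805178-1805875, plus strand), the only pooled summit within 5 kb had a signal of 9.21 (rank 14596 of 18821) and lay in a coding exon of srt-41, 3736 bp downstream of the hsp-16.2 start. Each replicate list held weak summits at the shared promoter. Replicate 1 had 1 summit 140 bp inside hsp-16.2 with a signal of 2.92 (rank 16475 of 24037) and 1 summit 156 bp inside hsp-16.41 with a signal of 2.58 (rank 18902). Replicate 2 had 1 summit between the genes, 37 bp upstream of hsp-16.2 and 184 bp upstream of hsp-16.41, with a signal of 8.55 (rank 12530 of 19038). The pooled list had no summit there. The whole stretch between the genes (chrV:1804958-1805177, ce11, plus strand) is shown because it holds heat shock elements, in capitals, and no WGATAR.

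hsp-16.2 and hsp-16.41 intergenic sequence: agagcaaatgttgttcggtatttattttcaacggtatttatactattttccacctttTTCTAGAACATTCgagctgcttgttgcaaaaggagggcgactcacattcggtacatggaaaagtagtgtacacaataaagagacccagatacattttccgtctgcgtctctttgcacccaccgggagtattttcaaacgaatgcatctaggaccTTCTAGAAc

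The other pair, hsp-16.1 (chrV:9087293-9087782, minus strand) and hsp-16.48 (chrV:9088131-9088617, plus strand), lies in an inverted repeat with its copies hsp-16.11 and hsp-16.49. The arms (chrV:9086851-9088741 and chrV:9089156-9091046) are each 1891 bp long and identical at 1890 positions (99.9%). None of the 4 peak lists had a summit in either arm. Of the 50-base words inside hsp-16.1 and hsp-16.48, 0% occurred once in the genome, and the same held for 36-base words, so a read of that length from one copy could equally have come from the other. Inside hsp-16.2 and hsp-16.41 all 50-base words were unique (100%), and inside the other 6 genes at least 97.4% were. The labels and readmes do not say how reads with several matches were treated in the peak lists, and its part in the empty arms was not tested. At hsp-16.1 and hsp-16.48, sites without binding and sites where reads could not be placed cannot be told apart. The pooled summit nearest to them, with a signal of 9.28 (rank 14487), lay outside the repeat, 1044 bp downstream of the hsp-16.1 start. Replicate 1 had its strongest summit there at 1783 bp, with a signal of 6.50 (rank 6989), and replicate 2 had no summit within 5 kb of either gene.

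**Figure D3:**
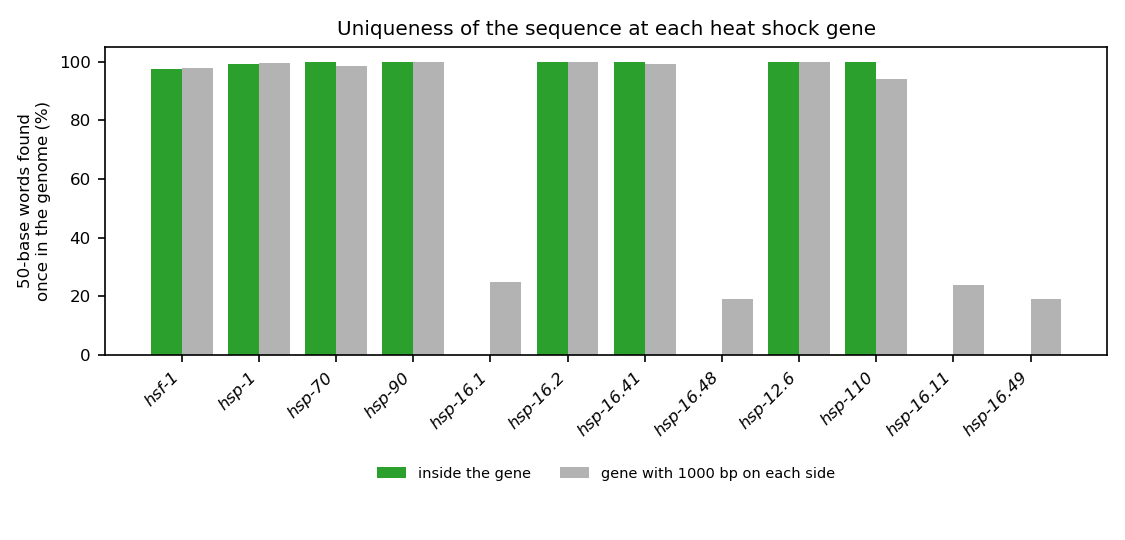
Share of 50-base words that occur once in the genome (vertical axis, percent) inside each gene (green) and in the gene with 1000 bp on each side (grey), for the 10 heat shock genes and the copies hsp-16.11 and hsp-16.49. The genes hsp-16.1 and hsp-16.48 and their copies have no unique word inside the gene, and every other gene is at 97.4% or above.

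The words under the 8 summits were compared with those under all 4739 optimal summits, in windows reaching 100 bp to each side and on both strands. TGATAAG was in 3 of 8 windows, beside 44.1% of all optimal windows. These were the distal site of hsf-1 (36 bp from the summit), the stronger site between hsp-12.6 and idh-1 (61 bp) and the site upstream of F26H9.5 near hsp-70 (42 bp). WGATAR, which every TGATAAG contains, was in 6 of 8 windows, beside 84.2%. The windows without it were those of hsp-110 and hsp-90. TTCNNGAA was in 3 of 8 windows, beside 7.43%, and these were hsp-110, hsp-90 and the stronger site between hsp-12.6 and idh-1. The facing pair of units was not searched for, and its share of windows was not computed. The printed windows of hsp-1, hsp-110 and hsp-90 each hold a facing pair, so the hsp-1 window is not free of paired units. An element of 3 heat shock units, which contains TTCNNGAA, was at hsp-110 alone, beside 0.612% of optimal windows (29 of 4739). The E-box CACGTG was in 2 of 8 windows, both near hsp-70, beside 6.27%. GTAAACA, the word of forkhead factors such as DAF-16, was in 0 of 8, beside 4.90%, and GAGAGA was in 1 of 8, at hsp-1, beside 26.4%. The 3 sites closest to a start of a chaperone gene, at hsp-1, hsp-110 and the inner start of hsp-90, held no TGATAAG. Most optimal windows lack this word, so its lack at 3 sites is not read as a trait of them. A match is a description of letters and does not show which factor bound them.

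**Figure D4:**
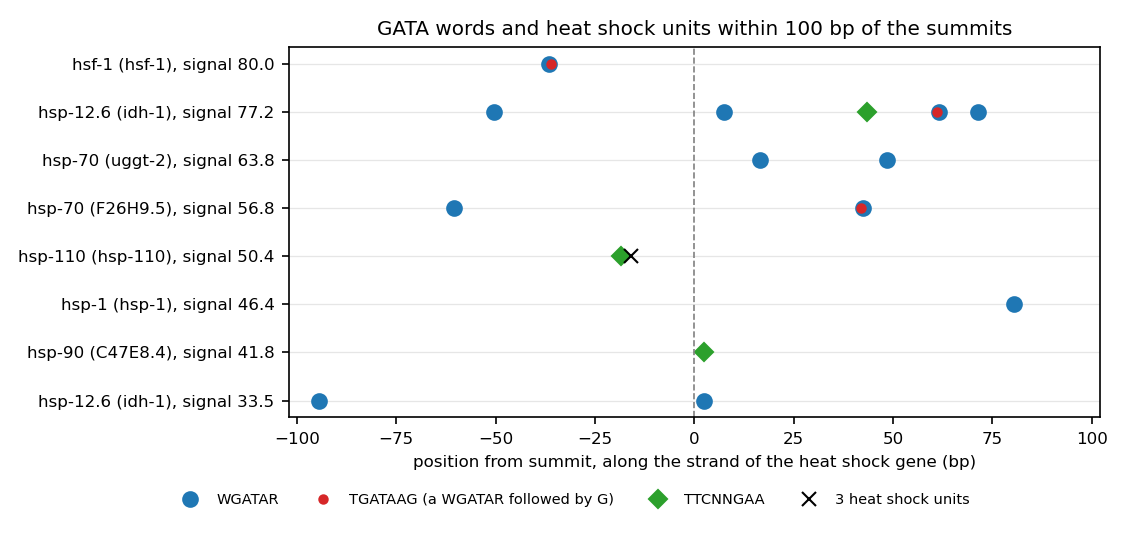
Positions of words within 100 bp of the 8 optimal summits, as distance from the summit in bp along the strand of the heat shock gene (horizontal axis). Rows are sites in order of signal, with the gene of the nearest start in parentheses, blue circles are WGATAR, red points TGATAAG, green diamonds TTCNNGAA and the cross 3 heat shock units. The rows of hsp-110 and hsp-90 hold a green diamond and no blue circle.

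The stretch upstream of each gene was searched as well, whether or not it had a peak. In the 500 bp before the outermost start, TTCNNGAA was found in 10 of 10 genes, beside 29.1% of protein-coding genes, and 3 alternating units in 8 of 10, beside 3.25%. The genes without the 3-unit element were hsf-1 and hsp-12.6. Within each divergent pair of hsp-16 genes these stretches overlap, so some elements were counted for both genes of a pair. TGATAAG was found in 0 of 10 of these stretches, beside 12.7% of protein-coding genes, and WGATAR in 5 of 10, beside 71.4%. Of the 8 genes with a 3-unit element, 2 had an optimal promoter summit, and hsp-70 and the hsp-16 genes were among those without one. The same share over all protein-coding genes with a 3-unit element was not computed. At hsp-16.1 and hsp-16.48, whose sequence is not unique, the lack of a summit cannot be read as a lack of binding. At hsp-110 the 3-unit elements were at -231 and -109 bp from the start, the one at -231 bp being 16 bp from the summit, and the single one of hsp-1 was 178 bp from its summit. The 3-unit elements of hsp-90 at -9 and -79 bp, counted from the outermost start, were 926 bp or more from its summit. Of the heat shock words searched for, only TTCNNGAA lay under that summit. The facing pair, which the printed hsp-90 window also holds, was not among them.

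Weaker pooled peaks also lay inside hsp-1 and hsp-90 and at the ends of hsp-1, hsp-90 and hsp-110, a pattern picked out after the values were seen. The pooled list had 3 summits inside hsp-1, the one at its end included, and 4 inside hsp-90, its optimal peak included, beside 4.37% of protein-coding genes with 3 or more. It had 0 inside hsp-110, 1 inside hsf-1 and 0 inside each of the other 6 genes. Within 200 bp of the gene end, a pooled summit was found for 3 of 10 genes, beside 10.7%. At hsp-1 it had a signal of 24.8 (rank 5919), with 8.26 in replicate 1 and 20.7 in replicate 2. At hsp-90 it had a signal of 14.8 (rank 8921), with 7.78 in replicate 1 and 13.9 in replicate 2. At hsp-110 it had a signal of 12.22 (rank 10589), with none in replicate 1 and 11.7 in replicate 2. None of these reached the optimal list. The hsp-90 summit was 134 bp past the gene end, in the promoters of C47E8.11 and gasr-8, and the hsp-110 summit was in the promoter of ufbp-1.

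Chaperone genes beyond the 10 were counted in 7 lists with 52 genes in all. An optimal promoter summit was found for 11 of 52 (21.2%), beside the 12.8% of all protein-coding genes. Within 5 kb of the span an optimal summit was found for 23 of 52 (44.2%), close to the 41.7% of all protein-coding genes. Of the other small heat shock genes, 1 of 11 had one, hsp-17, with a signal of 37.2 at -420 bp, while hsp-12.3, hsp-16.11 and hsp-16.49 had none. Of the other HSP70-family genes, 1 of 4 had one, stc-1, whose stronger peak of 110.6 at -895 bp was shared with F54C9.3 and whose weaker peak of 38.9 lay at -145 bp. The regulators of HSF-1 that were matched, hsb-1, ddl-1 and ddl-2, had 0 of 3.

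Of the cochaperones, which deliver clients to HSP70 and HSP90 or set their ATPase cycle, 3 of 14 had a promoter peak. These were ahsa-1, an activator of the HSP90 ATPase (signal 74.9 at -206 bp, shared with C01G10.7), and the BAG-domain genes unc-23 (60.3 at -991 bp) and bag-1 (38.2 at -183 bp). The CCT chaperonin, which folds actin and tubulin, had 3 of 8. They were cct-1 (64.5 at -244 bp, shared with mig-5), cct-7 (46.2 at -291 bp, shared with T10B5.4) and cct-6 (32.0 at -323 bp, shared with alh-9). Prefoldin, which hands clients to the chaperonin, had 1 of 6, pfd-1 (34.7 at -381 bp, shared with F01G4.6). Of the paralogs in other compartments 2 of 6 had one, both of the endoplasmic reticulum: the HSP90 gene enpl-1 (66.6 at -37 bp, shared with imp-2) and the HSP70 gene hsp-3 (44.5 at +6 bp). The other 4 had none: hsp-4, the second HSP70 gene of the endoplasmic reticulum, and the mitochondrial genes hsp-6, hsp-75 and hsp-60. In 7 of these 11 genes the strongest promoter peak also lay in the promoter of a neighbour. The same share over all genes with a promoter summit was not computed, so whether such sharing is a trait of chaperone genes was not tested.

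**Figure D5:**
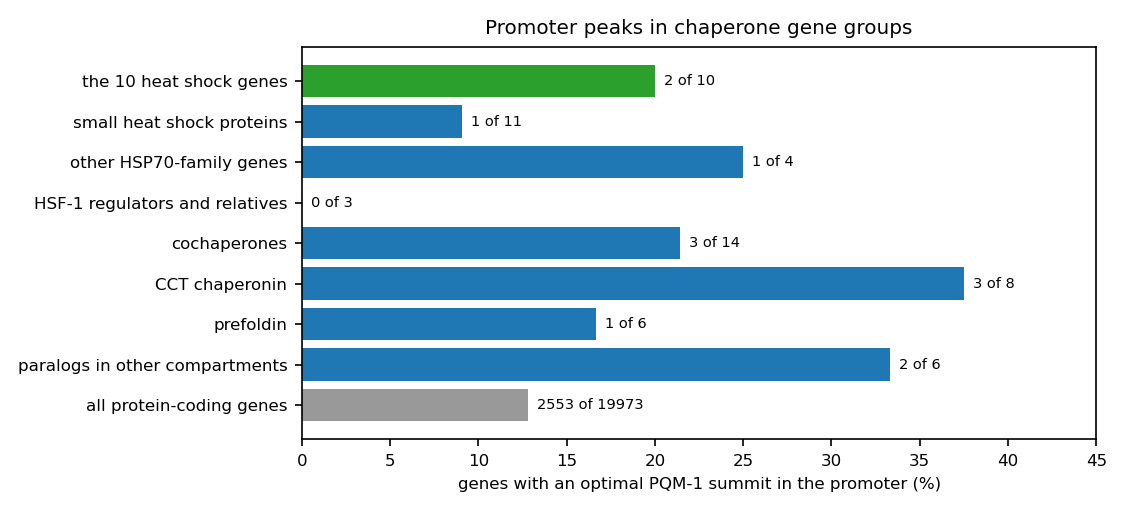
Share of genes with an optimal summit in the promoter (horizontal axis, percent) for the 10 heat shock genes (green), the 7 wider lists (blue) and all protein-coding genes (grey), with the counts at the bar ends. The lists hold 3 to 14 genes, and 1 gene moves the bar of a short list much further than that of a long one.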

How the data were processed

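The members and the chaperone lists were chosen with earlier results of these data known. The deposited peak lists on ce11 hold per peak a signal, computed by the authors with a control alignment per the deposited readmes, and a −log10 q value whose ceiling in each list kept it from ranking peaks. For caller, aligner and IDR settings, names and versions were not given in the sources used here. The control library was not used here, and lists of peaks carry no read counts, so depth is unknown and no interval was computed.

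A summit (peak start plus the deposited offset) counted for a gene within 5 kb of its Ensembl span or from 1000 bp upstream to 200 bp downstream of its outermost start. Replicate peaks matched by an overlap of any base, and the strongest one gave the signal. Words were searched on both strands of the RefSeq WBcel235 sequence, from which the printed sequences come. Most counts stand beside the same count over all protein-coding genes or all optimal windows, and no test was run, since there was 1 group. Named were the 10 members, genes sharing or nearest to their peaks, and up to 4 genes per list with promoter peaks. A few list genes without one were named after their values were seen. Gene-end and gene-body counts were chosen after the peaks were seen. Alternatives changed the threshold, replicate, distance, promoter, start, overlap and window. Lookups and word search were tested on simulated data. Python 3.11.15, numpy 2.4.6, biopython 1.88 and matplotlib 3.10.9 were used.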

Additional observations from a re-analysis of the deposited data

How the results depend on the processing

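With the stronger 50% of optimal peaks, 3 of the 10 genes (hsf-1, hsp-70 and hsp-12.6) kept a summit within 5 kb, 0 a promoter summit and 4 distinct peaks remained, beside 25.4% and 6.34% of all protein-coding genes, and 5 wider chaperone genes had a promoter summit. With 2 times as many pooled peaks, the distinct peaks came to 14, the promoter share of all genes to 23.9% and the wider genes to 27, and the members called were the same 6 and 2, the 6 beside 60.5% of all genes within 5 kb. Within 2 kb of the span, 3 members (hsp-1, hsp-90 and hsp-110) and 3 peaks were left, beside 26.9% of all genes. Within 10 kb there were 15 peaks, and hsp-16.1 and hsp-16.48 were added for 8 members, beside 58.6% of all genes. Within 5 kb of the start alone there were 5 peaks and 5 members, without hsp-70, beside 35.8% of all genes. With each replicate's own strongest peaks in place of the optimal list, 5 to 6 members, 7 to 8 peaks and 9 to 14 wider genes were called. The member lost without replicate 2 was hsp-90. Of all genes, 41.8% without replicate 1 and 41.2% without replicate 2 had a summit within 5 kb, and 12.7% in either case a promoter summit. Counting from the innermost start, an alternative chosen after seeing the data, added hsp-90 to the promoter calls, for 3 members, beside 12.22% of all genes. Windows of 200 bp on each side took the 3-unit element to 2 sites, beside 1.98% of all optimal windows. Windows of 50 bp on each side took CACGTG to 1, beside 3.46%, and GAGAGA to 0, beside 17.3%. A start by Ensembl's canonical tag was not run, as the annotation used has no such tag. No paired analysis was possible because there was 1 group and no result came from a test. Limits are the 2 replicates, the single condition and the unknown depth.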
